A study of Homo sapiens with 12 samples.

Results

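The clustered protocadherin genes lie in 3 neighbouring arrays on human chromosome 5, named alpha, beta and gamma. The members were taken by name from the count tables: every gene called PCDHA, PCDHB, PCDHGA, PCDHGB or PCDHGC followed by its number, with the C-type genes PCDHAC1 and PCDHAC2. The rule found 54 of the 60645 gene names, 16 in the alpha cluster, 16 in the beta cluster and 22 in the gamma cluster. They span positions 140786136 to 141512977 of chromosome 5 on GRCh38, and all lie on the plus strand. The libraries came from HEK-293T, a human embryonic kidney line that carries SV40 large T antigen, in an ARID1A-knockout derivative called 12KO. ARID1A is a large subunit of BAF (SWI/SNF) chromatin remodelling complexes that binds DNA, and IDR1b is one of its intrinsically disordered regions. All 12 libraries carried the knockout, and overexpression gave 3 states: no ARID1A (empty vector), full-length ARID1A (WT) and ARID1A lacking IDR1b (ΔIDR1b). Each state was combined with a further empty vector or with EWS-FLI1, the fusion transcription factor of Ewing sarcoma, and cells grew for 48 h after plasmid transfection. Each of the 6 groups held 2 poly(A) RNA libraries. The labels do not say whether the states were separate clones or lines, so ARID1A state and line cannot be told apart, and they do not say that the 2 repeats were separate cultures, so p-values measure only the spread between these libraries.

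Clustered protocadherins are cadherin-like adhesion proteins of the cell surface. They form cis dimers that bind matching dimers on the opposite cell, and in neurons a different combination in each cell is known to serve self-avoidance. Each alpha and gamma gene has its own promoter and a large variable first exon that encodes the ectodomain, spliced to constant exons shared by the whole cluster, whereas a beta gene has a variable exon and no constant exons. The promoters of alternate members are chosen stochastically through CTCF, cohesin and distant enhancers, and DNA methylation keeps the unchosen ones silent. The 5 C-type genes, PCDHAC1, PCDHAC2, PCDHGC3, PCDHGC4 and PCDHGC5, are expressed more constitutively in neurons. PCDHGC3 is also expressed widely outside the nervous system, and PCDHGC4 is known for supporting neuronal survival.

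The promoter stretches of the members on which the results turn are printed to show what precedes each first exon. CGCT on either strand is in capitals, because the CGCT box is the core of the conserved element of most clustered protocadherin promoters. The capitals mark every match of these letters. Whether a marked match, or the promoter that holds it, belongs to that element was not determined. The sequences are from RefSeq (GRCh38.p14), plus strand, 5′ to 3′, and end before the first annotated base of the gene in the count tables. PCDHGC3 is shown because it was the member called in more than 1 comparison. PCDHGC4 and PCDHGA11 are the members of highest level, and PCDHB13 and PCDHGA7 each passed the test in 1 comparison.
PCDHGC3, chr5:141475716-141475946: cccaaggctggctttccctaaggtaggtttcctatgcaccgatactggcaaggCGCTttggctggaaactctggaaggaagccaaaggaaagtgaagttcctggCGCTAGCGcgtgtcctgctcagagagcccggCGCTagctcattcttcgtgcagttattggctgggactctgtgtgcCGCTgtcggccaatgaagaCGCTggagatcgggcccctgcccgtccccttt
PCDHGC4, chr5:141484924-141484996: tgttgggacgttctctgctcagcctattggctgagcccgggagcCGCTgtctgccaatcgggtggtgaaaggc
PCDHGA11, chr5:141420801-141421046: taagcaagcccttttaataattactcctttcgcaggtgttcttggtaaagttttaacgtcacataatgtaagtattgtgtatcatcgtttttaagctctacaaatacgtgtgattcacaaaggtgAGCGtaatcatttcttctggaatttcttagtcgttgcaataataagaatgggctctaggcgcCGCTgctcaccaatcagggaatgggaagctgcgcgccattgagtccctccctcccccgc
PCDHB13, chr5:141213669-141213918: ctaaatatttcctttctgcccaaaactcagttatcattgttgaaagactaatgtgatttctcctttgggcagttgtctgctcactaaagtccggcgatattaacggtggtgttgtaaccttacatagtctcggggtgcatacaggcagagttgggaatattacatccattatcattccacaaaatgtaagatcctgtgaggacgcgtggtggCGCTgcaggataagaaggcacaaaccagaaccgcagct
PCDHGA7, chr5:141382492-141382738: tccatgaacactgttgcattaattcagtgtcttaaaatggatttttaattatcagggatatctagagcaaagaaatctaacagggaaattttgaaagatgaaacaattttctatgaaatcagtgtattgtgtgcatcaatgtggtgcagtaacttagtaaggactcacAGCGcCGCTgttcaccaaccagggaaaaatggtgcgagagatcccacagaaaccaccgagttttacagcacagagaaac

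The PCDHGC3 stretch held 6 CGCT matches, the PCDHGA11 and PCDHGA7 stretches 2 each, and the PCDHB13 and PCDHGC4 stretches 1 each. The PCDHGC4 stretch is 73 bases long because the annotated first exon begins inside the RefSeq window, and that of PCDHGC3 is 231 bases. In the full window of 250 bases before the RefSeq start, which 47 of the 54 members had, CGCT occurred in 45 (95.7%). It occurred in 64.8% of all 35116 promoters of the table, so a match of 4 letters is common everywhere. All 20 gamma promoters with an entry held it, as did 12 of 13 alpha promoters and 13 of 14 beta promoters. AGNNGGCGC, a core of the CTCF motif searched on both strands, occurred in 3 of 47 member windows (6.38%), those of PCDHB7, PCDHB9 and PCDHGC4, and in 8.61% of all promoters. The string is fixed, so near matches are not counted. The windows of PCDHB3, PCDHB5, PCDHB12, PCDHB13, PCDHB14, PCDHB15 and PCDHB16 hold TGGTGGCGC, which differs from it in the first letter only. Those of PCDHB2, PCDHB4 and PCDHB10 hold other near matches that also differ in the first letter only. These shares therefore do not measure how many promoters hold a CTCF site. The last 3 letters of AGNNGGCGC can be the first 3 of CGCT, so matches of both may overlap. The C-type promoters stood apart in base composition. Their GC content was 60 to 63.2% over the 4 with an entry, against 31.6 to 40% in 11 alternate alpha promoters, 30.8 to 44.8% in 14 beta promoters and 30 to 43.6% in 11 gamma A promoters. The 7 gamma B promoters ran from 40.8 to 62% and reached into the C-type range.

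All 12 libraries had 11702251 to 14445379 counted read pairs. ARID1A itself read 147 to 165 CPM (counts scaled to library size with TMM factors) in the libraries without ARID1A, 1843 to 2291 CPM with WT and 2608 to 2878 CPM with ΔIDR1b. FLI1 read 1688 to 3675 CPM with EWS-FLI1 and at most 0.146 CPM with the empty vector. Overexpression of ARID1A and the presence of the fusion thus went with the labels in all 12 libraries. A count over the whole gene checks neither the knockout, since ARID1A transcript remained, nor the loss of IDR1b. The FLI1 level with EWS-FLI1 was higher in the WT libraries (3462 to 3675 CPM) than in the other EWS-FLI1 libraries (1688 to 1906 CPM), so a difference of WT from the other states under EWS-FLI1 goes with a difference in the dose of the fusion, and their parts cannot be told apart. Of the markers listed for the HEK-293 line, NEFL, INA, PAX2 and LHX1 were counted in all 12 libraries and NEFM was at 0 in 10 of them. Among markers of other cells, PTPRC had 3 counts, COL1A2 1 count and MYH6 5 counts over all libraries, while COL1A1 was counted in all 12. HBB had 25 counts in the EWS-FLI1 libraries without ARID1A and 5 in the 10 others together.

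The family was close to silent in these cells. The 54 members together received 249 to 441 counts per library, 3959 counts of 159873794 over the 12 libraries. From 27 to 37 members had at least 1 count in a given library, and 10 members had one in every library. The gamma cluster held 75.6% of all member counts, the beta cluster 15.1% and the alpha cluster 9.35%. On average over the libraries, 3 members reached 1 CPM, 30 lay from 0.1 to under 1 CPM, and 21 lay under 0.1 CPM.

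What could be counted depends on the shared exons. A read in an exon that belongs to several genes was assigned to none, so the 59, 89 and 2721 bases shared by the 15 protein-coding alpha genes, and the 59, 89 and 2029 bases shared by the 22 gamma genes, gave no counts. Each alpha and gamma value is therefore a count of the bases that gene does not share. PCDHA14, annotated as a pseudogene, had 0 unshared bases and PCDHA1 had 7, so both were at 0 by construction and nothing is known of their level. PCDHB1 had 7872 unshared bases and 0 counts in all 12 libraries, which allows 0.0188 CPM on average, from 3 counts over the 12 libraries and for counting error only. Read pairs that matched several places were not counted either, which can lower the values of similar members, the beta genes among them, by an amount that was not tested.

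Levels were compared between genes as CPM per kilobase of unshared exon, for the 52 members with at least 1000 such bases. PCDHGC4 had the highest level at 1.77 CPM per kb (range over libraries 1.37 to 2.20), PCDHGA11 followed at 1.46 (1.00 to 2.04) and PCDHGC3 at 1.24 (0.606 to 2.51). The ranges of these 3 overlapped. PCDHGC4 led in 7 libraries, PCDHGC3 in 3 and PCDHGA11 in 2. The next member, PCDHGB7, had 0.287 CPM per kb (0.0763 to 0.513), 4.31-fold below PCDHGC3. In 11 of 12 libraries each of the 3 leading genes exceeded every other member. After PCDHGB7 came PCDHB2 (0.286), PCDHA11 (0.275), PCDHGB5 (0.251), PCDHA12 (0.182) and PCDHA13 (0.175), whose ranges over libraries all overlapped.

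**Figure D1:**
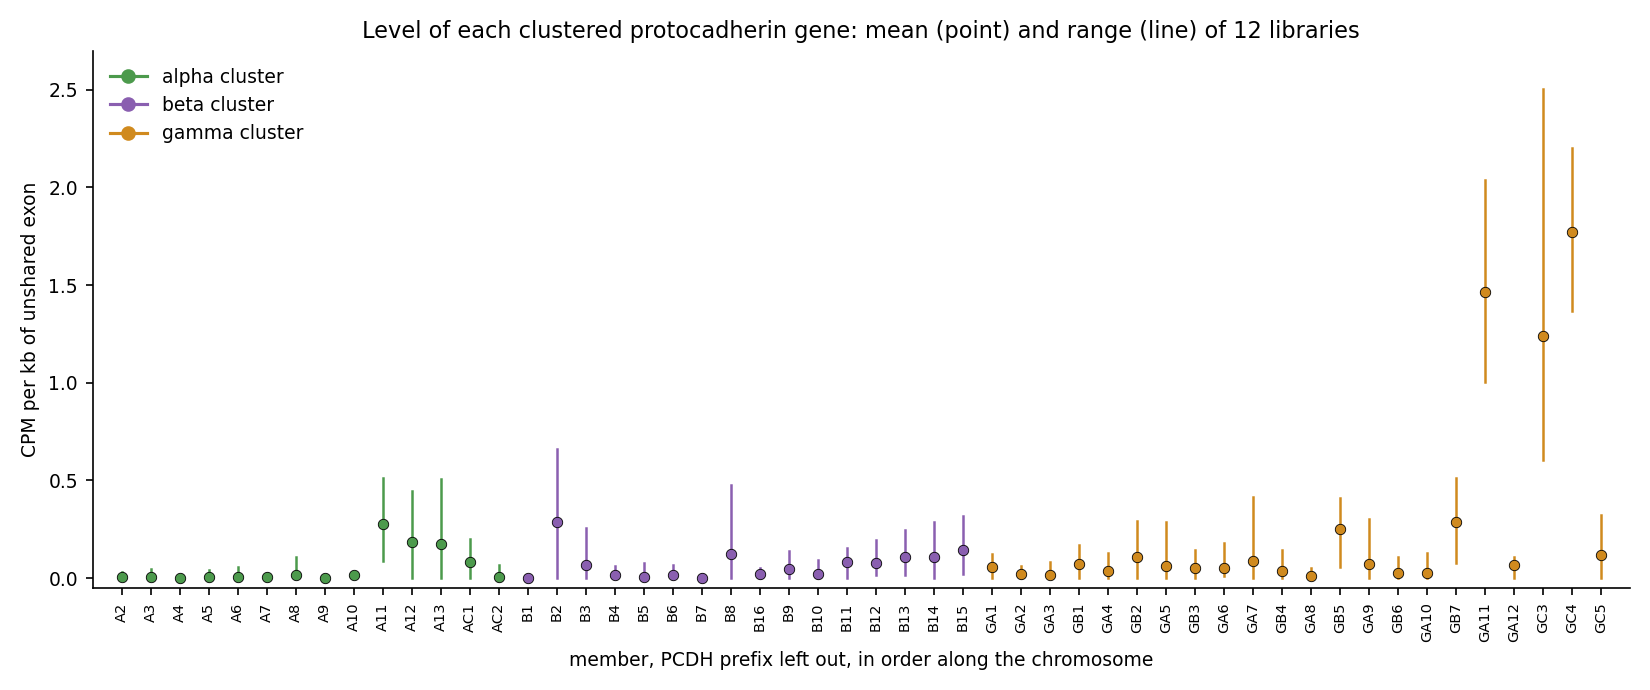
Level of the 52 members with a countable length, in CPM per kb of unshared exon, ordered along chromosome 5; points are means and lines the range of the 12 libraries. PCDHGA11, PCDHGC3 and PCDHGC4 lie above 1 CPM per kb on average and every other member below 0.3.

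In the alpha and gamma clusters the counts came mostly from members near the 3′ end of the variable exons. In the alpha cluster, PCDHA11, PCDHA12 and PCDHA13 held 71.1% of the counts, and PCDHA2 to PCDHA9 had 1 to 6 counts each over all libraries. PCDHA11 had 148 counts, PCDHA12 58 and PCDHA13 57. In the gamma cluster PCDHGA11, PCDHGC4 and PCDHGC3 held 76.4% of the counts (69.7 to 83.9% by library). The beta cluster had no such leader. Its 3 highest members, PCDHB2, PCDHB13 and PCDHB15, held 45.9% of its counts, and the median beta gene had 31 counts, near the 33.5 of the gamma cluster and above the 3.5 of the alpha cluster. The C-type genes did not form a class of one level. PCDHGC4 had 787 counts and PCDHGC3 652, whereas PCDHAC1 had 56, PCDHGC5 55 and PCDHAC2 4, of which 3 came from 1 library.

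Summed by cluster, the alpha genes did not separate the groups. Their sum was 2.08 and 3.52 CPM without ARID1A, 2.68 and 1.49 CPM with WT and 1.97 and 2.65 CPM with ΔIDR1b, all with the empty vector. With EWS-FLI1 it was 1.79 and 2.25, 2.11 and 2.35, and 2.97 and 1.88 CPM in the same order, and every pair of states overlapped.

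The gamma sum was lowest with WT ARID1A. With the empty vector it was 18.9 and 21.5 CPM without ARID1A, 16.2 and 16.4 CPM with WT and 18.6 and 25.0 CPM with ΔIDR1b. With EWS-FLI1 it was 20.1 and 19.0, 13.2 and 13.3, and 21.0 and 21.3 CPM. The 4 WT libraries, from 13.2 to 16.4 CPM, all lay below the 8 other libraries, from 18.6 to 25.0 CPM. The mean for ΔIDR1b was 1.33-fold that for WT with the empty vector and 1.60-fold with EWS-FLI1. Without PCDHGC3, a recalculation chosen after its values were seen, the ratios were 1.16 and 1.37. These sums have no test, since they add up members that were chosen as a set. The 8157 genes in the range of levels of the members tested below were also lower with WT than without ARID1A (median log2 -0.30 with the empty vector, -0.29 with EWS-FLI1). They were higher with ΔIDR1b than with WT (0.20 and 0.18). How many genes separate the 4 WT libraries from the 8 others was not counted.

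The beta sum was higher with EWS-FLI1 in each state. It was 2.75 and 2.77 CPM without ARID1A, 2.53 and 2.24 CPM with WT and 2.92 and 3.86 CPM with ΔIDR1b in the empty-vector libraries. In the EWS-FLI1 libraries it was 3.75 and 5.62, 3.46 and 3.79, and 5.10 and 6.12 CPM. ΔIDR1b exceeded WT without overlap under both vectors, 1.42-fold and 1.55-fold, where 64.1% and 54.5% of all genes tested did not overlap. EWS-FLI1 libraries exceeded their empty-vector counterparts without overlap in all 3 states. The ratios were 1.70-fold without ARID1A, 1.52-fold with WT and 1.65-fold with ΔIDR1b. Of all genes tested, 35.4%, 29.9% and 35.9% did not overlap in these comparisons, in either direction. The beta sums rest on 30 to 88 counts per library and have no test.

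**Figure D2:**
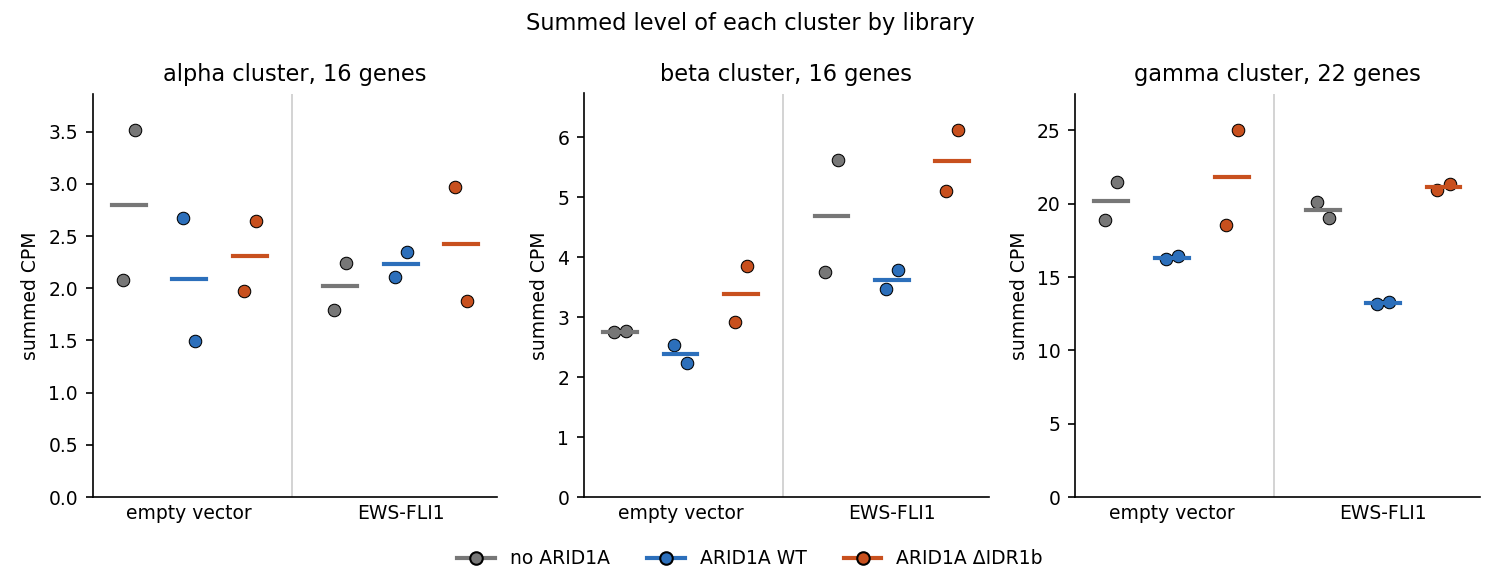
Summed CPM of the alpha, beta and gamma members in each library (points; horizontal bars are means of 2) by ARID1A state and vector. The 4 WT libraries are the lowest for gamma (13.2 to 16.4 CPM), and the EWS-FLI1 libraries lie above their empty-vector counterparts for beta in each state. Other genes of the tested members' range of levels were also lower with WT in the median. The beta sums rest on 30 to 88 counts per library.

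Few members could be tested gene by gene. The filter on low counts, applied to all genes, kept 13 of the 54 members: PCDHA11 and PCDHA12, PCDHB2, PCDHB13, PCDHB14 and PCDHB15, and PCDHGA7, PCDHGA11, PCDHGB5, PCDHGB7, PCDHGC3, PCDHGC4 and PCDHGC5. Their mean levels ran from 0.292 to 5.32 CPM. The median SE of a log2 difference between states was 0.83 to 0.98 for these 13, against 0.21 for all genes tested. In simulated data, 2 of 35 genes changed 2-fold within the members' range of levels were recovered, and 22 of 48 changed 4-fold. Differences of most members therefore had to be large to be detected at this depth, and a lack of calls says little about smaller ones.

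WT ARID1A against no ARID1A asked what restoring the protein did. No member passed the edgeR quasi-likelihood test at an adjusted p of 0.05 with either vector, where 11.7% of all 20377 genes tested did with the empty vector and 18.1% did so under EWS-FLI1. At an unadjusted p of 0.05 there were 2 members with the empty vector, PCDHGA7 and PCDHB14, and 1 with EWS-FLI1, PCDHB14, and DESeq2 called 0 in both. Of all 20377 genes tested by edgeR, 5251 and 6297 were under that unadjusted p. The fitted change was negative for 12 of 13 members with the empty vector and 11 of 13 with EWS-FLI1, with medians of -0.39 and -0.44 on the log2 scale. The 8157 genes within the same range of levels also had negative medians, -0.30 and -0.29, while all genes tested had -0.01 and -0.02. The lower member levels with WT thus stood beside a like shift of other lowly expressed genes. PCDHGC3, the gamma C-type gene, had a log2 difference of -0.37 (SE 0.36) with the empty vector and -0.53 (SE 0.37) with EWS-FLI1.

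ΔIDR1b against WT asked what the disordered region adds. ARID1A itself was called higher with ΔIDR1b than with WT, 1.36-fold with the empty vector and 1.27-fold with EWS-FLI1 (edgeR adjusted p = 0.000691 and 0.00973), so the missing region and the ARID1A dose cannot be told apart. PCDHGC3 was higher with ΔIDR1b under both vectors. It had 34 and 37 counts (2.53 and 2.76 CPM) in the WT libraries with the empty vector, and 52 and 114 counts (3.80 and 8.15 CPM) with ΔIDR1b. With EWS-FLI1 it had 37 and 26 counts (2.79 and 1.97 CPM) with WT, and 79 and 101 counts (5.59 and 7.02 CPM) with ΔIDR1b. The WT and ΔIDR1b libraries did not overlap, and 1 ΔIDR1b library with the empty vector (3.80 CPM) lay near the level without ARID1A.

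By edgeR's quasi-likelihood test PCDHGC3 rose by 1.17 on the log2 scale (SE 0.35, 2.26-fold, adjusted p = 0.0123) with the empty vector. It rose by 1.40 (SE 0.35, 2.65-fold, adjusted p = 0.00475) with EWS-FLI1. Of the 13 cell markers, 8 were tested. NEFL was called lower with ΔIDR1b than with WT under both vectors (log2 -0.47 and -0.63) and COL1A1 was called higher with the empty vector (0.34), and their part in the result was not tested. The 8 markers of other cells summed to 75.4 to 94.3 CPM in the WT libraries and 96.3 to 106 CPM in the ΔIDR1b libraries, and the 7 other than COL1A1 summed to at most 2.33 CPM in any library. The 5 markers of the HEK-293 line summed to 112 to 124 CPM with WT and 95.6 to 109 CPM with ΔIDR1b. The test of the difference between the 2 changes of PCDHGC3 gave 0.23 (SE 0.50, adjusted p = 1, edgeR). The call with EWS-FLI1 held in all 21 alternatives, with adjusted p from 0.000758 to 0.0495 by edgeR or DESeq2. The call with the empty vector was lost without the second ΔIDR1b library (log2 0.52, edgeR adjusted p = 0.453), and also without either WT library (adjusted p = 0.0928 and 0.0522, edgeR).

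In all, 1 of 13 members was called with the empty vector, where 24.5% of all genes tested were called. Under EWS-FLI1 2 of 13 were called, where 18.6% of all genes tested were called. Within the members' range of levels 12% and 10.2% of genes were called. The median log2 difference of the 13 members was 0.58 and 0.25, beside 0.20 and 0.18 in the genes of that range and 0.01 in all genes under both vectors.

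The second member called with EWS-FLI1 was PCDHB13, a beta gene with a single exon and no shared bases, at positions 141213919 to 141218979. Its mean over the 4 libraries compared was under 1 CPM, so it is named here after its values were seen. It had 2 and 1 counts with WT and 15 and 18 counts with ΔIDR1b, a ratio of 10.2 with a 95% exact counting interval of 3.2 to 52.1. The fitted log2 difference was 3.25 (SE 1.01, edgeR adjusted p = 0.0217). Leaving out any of the 4 libraries compared ended the call, with edgeR adjusted p from 0.0832 to 0.125. With the empty vector the same gene had 4 and 4 counts with WT and 5 and 1 with ΔIDR1b. The test of the difference between the vectors was not passed (log2 3.69, SE 1.47, edgeR adjusted p = 1).

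The other leading gamma genes, PCDHGC4 and PCDHGA11, were not called in ΔIDR1b against WT, and their fitted differences were positive. PCDHGC4, whose first exon lies next to it along the array, read 4.17 and 4.78 CPM with WT and 5.41 and 6.15 CPM with ΔIDR1b with the empty vector, without overlap. With EWS-FLI1 it read 3.84 and 4.55 CPM with WT and 4.67 and 4.52 CPM with ΔIDR1b, which overlap. Its log2 differences were 0.37 (SE 0.28, edgeR adjusted p = 0.361) and 0.13 (SE 0.29, adjusted p = 0.791). PCDHGA11, an alternate gamma A gene, read 5.58 and 5.23 CPM with WT and 6.36 and 5.58 CPM with ΔIDR1b with the empty vector, and 4.14 and 3.64 against 4.39 and 4.87 CPM with EWS-FLI1, the latter without overlap. Its log2 differences were 0.14 (SE 0.28) and 0.25 (SE 0.30). Of all genes tested, 64.1% (empty vector) and 54.5% (EWS-FLI1) also had WT and ΔIDR1b libraries without overlap. Differences between genes in their response were not tested. PCDHGC5, the last gamma gene, was near the limit of counting, with 0 and 3 counts with WT and 4 and 10 with ΔIDR1b with the empty vector. With EWS-FLI1 it had 1 and 2 counts with WT and 13 and 7 with ΔIDR1b. The pooled count ratios were 4.52 (95% exact counting interval 1.26 to 24.6) and 6.19 (1.84 to 32.5), and edgeR's test was not passed (adjusted p = 0.226 and 0.137).

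**Figure D3:**
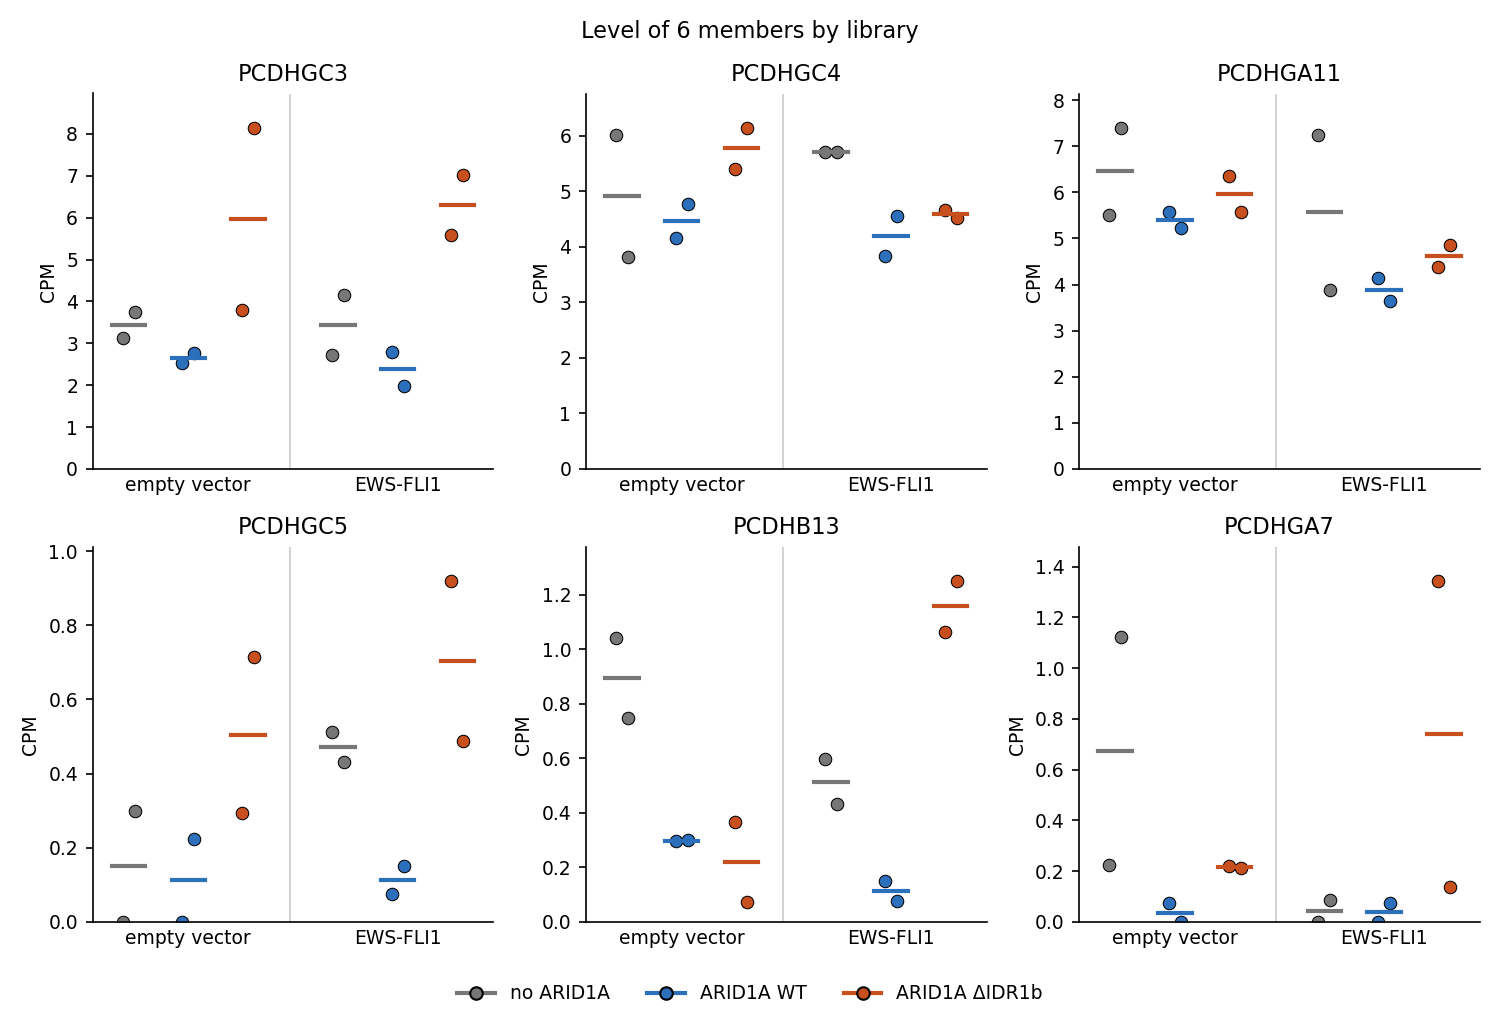
CPM of 6 members in each library (points; horizontal bars are means of 2) by ARID1A state and vector; the vertical scales differ. For PCDHGC3 the ΔIDR1b libraries (3.80 to 8.15 CPM) lie above the WT libraries (1.97 to 2.79 CPM), while 1 library carries most of the PCDHGA7 level with ΔIDR1b and EWS-FLI1.

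ΔIDR1b against no ARID1A compared the shortened protein with its absence. With the empty vector no member was called by edgeR, where 33.3% of all genes tested were. There were 2 members at an unadjusted p of 0.05, PCDHGC3 and PCDHB13, and DESeq2 called 0. Of all 20377 genes tested by edgeR, 8610 were under that unadjusted p. PCDHGC3 had 42 and 50 counts (3.12 and 3.74 CPM) without ARID1A, close below the lower ΔIDR1b library, and its log2 difference was 0.80 (SE 0.34, edgeR adjusted p = 0.0667). This value rested on single ΔIDR1b libraries, at 1.25 without the first (edgeR adjusted p = 0.0102) and 0.15 without the second (0.846). It also passed without either WT library with EWS-FLI1 (log2 0.80, edgeR adjusted p = 0.0415 and 0.0402). With EWS-FLI1, 2 of 13 members were called, where 35.9% of all genes tested were called. PCDHGC3 had 32 and 48 counts (2.73 and 4.15 CPM) without ARID1A against the 79 and 101 counts with ΔIDR1b. It rose by 0.87 (SE 0.34, 1.83-fold, edgeR adjusted p = 0.0436), and DESeq2 did not call it (adjusted p = 0.133). The edgeR call was also lost with GC and length trends removed (adjusted p = 0.0785), without the first library of no ARID1A with EWS-FLI1 (0.311), and without the first (0.0565) or the second (0.227) ΔIDR1b library. Of the 8 cell markers tested, COL1A1 was called higher with ΔIDR1b than without ARID1A under both vectors (log2 0.43 and 0.39) and NEFL lower (-0.32 and -0.69). HBB was also called lower with EWS-FLI1 (1 count against 25), and the part of these markers in the result was not tested. Without ARID1A the markers of other cells summed to 76.9 to 80.8 CPM and those of the HEK-293 line to 117 to 123 CPM.

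The other member called was PCDHGA7, a gamma A gene with a mean under 1 CPM, named after its values were seen. It had 0 and 1 counts without ARID1A and 19 and 2 counts with ΔIDR1b, so 1 library held nearly all of it. The pooled count ratio was 17.2 (95% exact counting interval 2.76 to 710), and the fitted log2 difference was 3.84 (SE 1.49, edgeR adjusted p = 0.0422). Without that library the log2 difference was 1.5 (edgeR adjusted p = 0.682), and 14 of 20 alternatives ended the call. A library of no ARID1A with the empty vector held 15 counts of PCDHGA7 and its partner 3, so single libraries stood high in more than 1 group.

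Repeat libraries differed more over the members than counting alone gives. The chi-square per degree of freedom between the 2 libraries of a group was 2.69 to 5.5 over the members with enough counts, beside 2.33 to 3.05 over genes in the same range of levels. The biological coefficient of variation, edgeR's spread between replicates, was 39.7% for the median tested member, beside 41.1% on edgeR's trend at the members' levels and 10.1% as the common value over all genes. PCDHA12, for example, had 12 and 0 counts with WT and the empty vector, and PCDHB2 had 13 and 0 without ARID1A.

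EWS-FLI1 against the empty vector gave no called member in any state by edgeR or DESeq2. Few genes were called at all: 0.0442% of those tested without ARID1A, 0.221% with WT, 0.172% with ΔIDR1b and 0.466% for the average over the 3 states. Members at an unadjusted p of 0.05 numbered 1, 0, 1 and 2 of 13 in the same order. Of all 20377 genes tested, 643, 1331, 1110 and 1610 were under that unadjusted p. The differences between states in the EWS-FLI1 effect gave no called member either, where 0.0245%, 0.0196% and 0% of genes were called. At an unadjusted p of 0.05 there were 0, 2 and 1 members, beside 884, 702 and 741 of all 20377 genes tested.

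No beta member passed the test of EWS-FLI1 against the empty vector. Of the 16 beta members, 13 had a higher mean CPM over the 6 EWS-FLI1 libraries than over the 6 empty-vector libraries. PCDHB5 and PCDHB7 had a lower one and PCDHB1 was at 0. Among the gamma members 12 were higher and 10 lower, and among the alpha members 4 and 10. Of the 20377 genes tested, which include 4 beta members, 10084 had a positive fitted change for the average over the states. Members are not replicates, and the split was not tested. Summed over the 6 libraries of each vector, PCDHB2 went from 34 counts (empty vector) to 70 (EWS-FLI1), PCDHB14 24 and 49, PCDHB15 32 and 52, and PCDHB8 16 and 32. Other members of the 13 hardly differed, with 15 and 17 counts for PCDHB3, 14 and 16 for PCDHB9 and 4 and 6 for PCDHB10. PCDHB4 and PCDHB6 each had 4 and 5. PCDHB2 varied within groups. Its empty-vector libraries held 13 and 0 counts for no ARID1A, 6 and 2 for WT, and 2 and 11 for ΔIDR1b. Its EWS-FLI1 libraries held 13 and 10, 3 and 20, and 9 and 15 in the same order, and the libraries overlapped in each state. For the average over the states the log2 difference was 1.12 (SE 0.59) for PCDHB2, 1.37 (SE 0.65) for PCDHB14, 0.86 (SE 0.55) for PCDHB15 and 0.08 (SE 0.68) for PCDHB13, with edgeR adjusted p from 0.608 to 0.992. By state, PCDHB13 had -0.79 without ARID1A, -1.33 with WT and 2.36 with ΔIDR1b. The median over these 4 was 0.99, beside 0.02 for genes of the same range of levels and 0.00 for all genes.

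**Figure D4:**
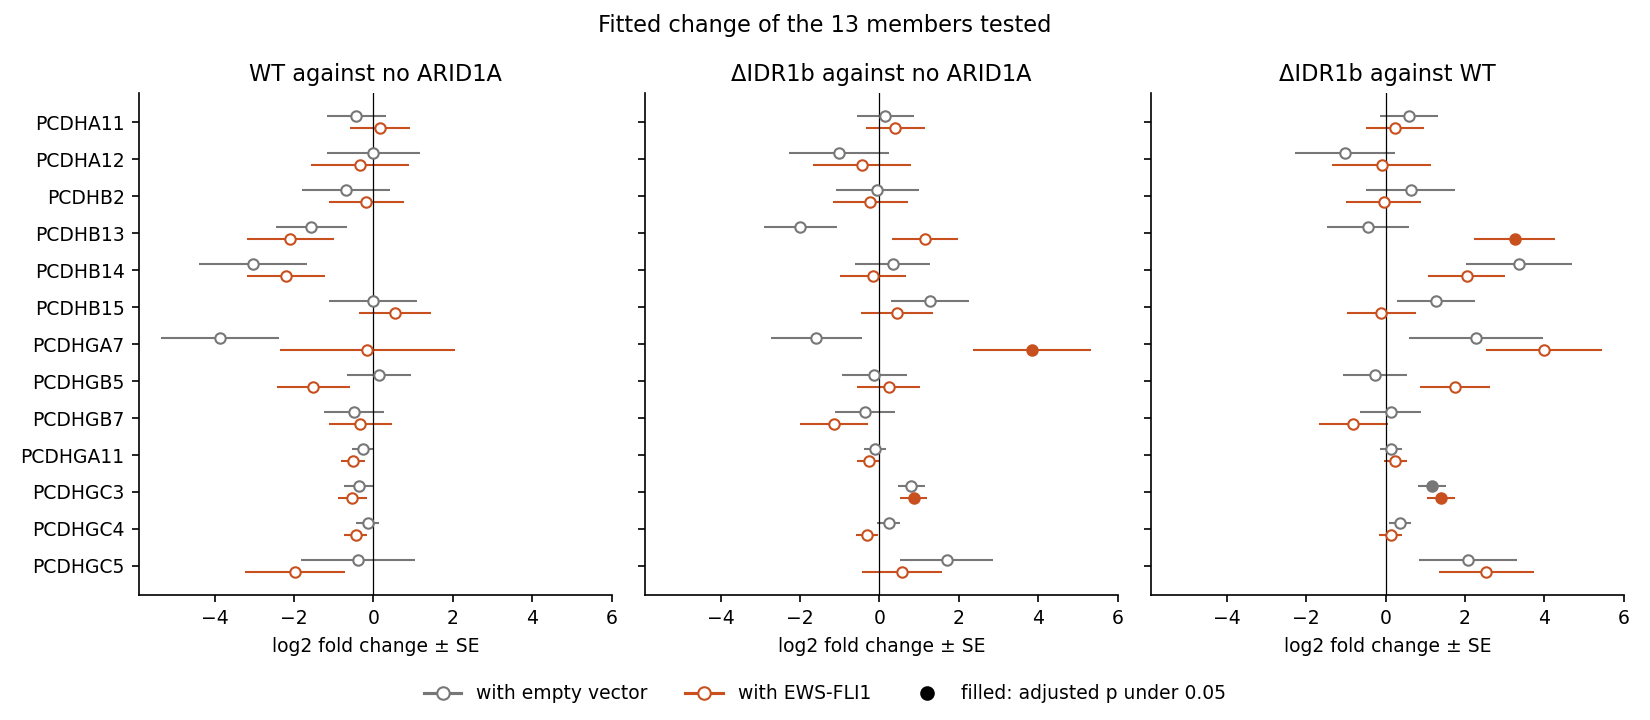
Log2 fold change with its SE (edgeR) of the 13 members tested in the comparisons of ARID1A states, with the empty vector (grey) and EWS-FLI1 (orange); filled points passed an adjusted p of 0.05. The filled points are PCDHGC3 (3 comparisons), PCDHB13 and PCDHGA7 (1 each).

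The alpha genes and remaining C-type genes gave no call. In the empty-vector libraries PCDHA11 read 4 and 23 counts for no ARID1A, 10 and 10 for WT, and 12 and 19 for ΔIDR1b. In the EWS-FLI1 libraries it read 11 and 7, 9 and 14, and 20 and 9 in that order. PCDHA12 read 2 and 10, 12 and 0, and 4 and 2 counts without EWS-FLI1, against 0 and 10, 7 and 2, and 5 and 4 under it. Only PCDHA11 was counted in all 12 libraries of the alpha cluster. PCDHAC1 read 0 and 9, 4 and 2, and 4 and 6 counts without EWS-FLI1, against 2 and 2, 11 and 6, and 2 and 8 under it. It was not tested because of its low counts. PCDHAC2 had 3 counts in 1 ΔIDR1b library, 1 count in 1 WT library and 0 in the 10 others.

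The genes known to act on the clusters were tested as a list of 26 chromatin and architectural regulators, all of which passed the filter. With the empty vector, WT against no ARID1A gave 3 higher and 1 lower, ΔIDR1b against no ARID1A 7 higher and 4 lower, and ΔIDR1b against WT 4 higher and 3 lower. With EWS-FLI1 the counts were 4 and 3, 8 and 3, and 5 and 0. In both directions together these were 4, 11 and 7 of 26 with the empty vector, where 11.7%, 33.3% and 24.5% of all genes tested were called, and 7, 11 and 5 with EWS-FLI1, where 18.1%, 35.9% and 18.6% were. The list's median log2 difference lay between 0.05 and 0.13 in these comparisons. TET3, a 5-methylcytosine dioxygenase, was called higher in all 6 comparisons (log2 0.41 to 1.00). TET2, of the same family, was called lower with ΔIDR1b against no ARID1A (-0.69 and -0.68). WAPL, which releases cohesin from chromatin, was called higher with ΔIDR1b against WT (0.38 and 0.30). CTCF was called in none of the 6, at 58.1 to 70.3 CPM over the libraries. No list gene was called in a comparison of EWS-FLI1 with the empty vector.

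The intracellular partners, 17 genes of FAK and PYK2 signalling, shedding and the WAVE complex, were called 3 higher and 0 lower, 4 and 2, and 0 and 2 with the empty vector in the same order. With EWS-FLI1 they were called 4 higher and 2 lower, 5 and 2, and 1 and 1. The totals of 3, 6 and 2 of 17, and of 6, 7 and 2, stand beside the same shares of all genes tested. FYN, a Src-family kinase, was higher with ΔIDR1b than without ARID1A (0.64 and 0.84), and BRK1, a WAVE complex subunit, was lower (-0.50 and -0.44).

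Of the 12 listed protocadherins outside the arrays, 4 (PCDH10, PCDH9, PCDH7 and PCDH1) had a higher mean CPM than any clustered member, and 10 could be tested. These CPM are not per length, and alpha and gamma members were counted over unshared bases only. The order of PCDH1 (6.05 CPM) and PCDHGA11 (5.32 CPM, 62.5% of its exonic length unshared) is therefore not an order of expression. PCDH10, a delta-protocadherin, read 258 to 269 CPM in the 4 libraries without ARID1A, 142 to 175 CPM with WT and 99.0 to 134 CPM with ΔIDR1b. Its states did not overlap. Between a single pair of states within a vector, 54.5 to 69.9% of all genes tested did not overlap. How many genes separate all the states over both vectors was not counted. PCDH10 fell by 0.67 and 0.87 with WT against no ARID1A and by 1.03 and 1.18 with ΔIDR1b against no ARID1A. PCDH1 was higher than without ARID1A with WT (log2 1.42 and 0.94) and with ΔIDR1b (1.41 and 1.54). PCDH9 fell by 0.70 and 0.54 with ΔIDR1b against WT. In all, 4 of 10 were called with WT against no ARID1A under each vector, where 11.7% and 18.1% of all genes tested were. With ΔIDR1b against no ARID1A it was 6 of 10 under each vector, where 33.3% and 35.9% were. With ΔIDR1b against WT it was 2 of 10, where 24.5% and 18.6% were.

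Among the 88 other genes within 500000 bases of the arrays, 32 were tested. In the comparison of WT and no ARID1A, 3 were called higher and 4 lower without EWS-FLI1, against 5 and 7 under it, where 11.7% and 18.1% of all genes tested were called. With ΔIDR1b against no ARID1A it was 5 and 8, and 4 and 9, where 33.3% and 35.9% were called. With ΔIDR1b against WT it was 2 higher and 8 lower, and 1 and 6, where 24.5% and 18.6% were called. TAF7, a TFIID subunit whose gene lies between the beta and gamma clusters, read 43.9 to 53.1 CPM without ARID1A, 63.2 to 72.5 CPM with WT and 78.4 to 87.3 CPM with ΔIDR1b. The states did not overlap. Between a single pair of states within a vector, 54.5 to 69.9% of all genes tested did not overlap. The share of genes that separate all the states over both vectors was not counted. TAF7 was called higher in 5 of the 6 comparisons (log2 0.34 to 0.84), but not with ΔIDR1b against WT under EWS-FLI1. Neither TAF7 nor PCDHGC3 was called in a comparison of EWS-FLI1 with the empty vector, where at most 0.466% of all genes tested were.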

How the data were processed

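Poly(A) RNA of 12 HEK-293T libraries was sequenced as read pairs. The deposited values are raw counts per gene name, made by the authors with featureCounts 2.0.1 on GENCODE 41 exons (GRCh38.p13), per the file headers: fragments with both ends mapped, no strand, no multi-mapping or multi-overlapping reads, and no removal of marked duplicates. Antisense reads therefore cannot be told apart, and a read in an exon shared by genes counted for none. STAR, SAMtools and edgeR are named in the submitters' processing notes for GRCh38; the STAR version is not given in the sources used here.

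Genes were filtered with filterByExpr (minimum count 10, minimum total 15), scaled by TMM and fitted with edgeR 4.0.16 (R 4.3.3) quasi-likelihood, 1 mean per group over all 12 libraries. The 13 comparisons were adjusted by Benjamini-Hochberg over 20377 genes and called at 0.05. The scripts were tested on simulated data. Unshared length is the exonic length outside every other gene's exons. Exact intervals (95%) and floors of 3 counts cover counting error only. Named genes were ARID1A, FLI1 and EWSR1, the 2 highest members of each cluster, the 5 C-type genes, and per comparison up to 3 called members of at least 1 CPM in each direction; from each list, counts and up to 3 called genes. EWSR1 read 386 to 559 CPM with the empty vector and 1976 to 3728 CPM with EWS-FLI1. The members and lists were chosen with earlier results of these data known. Repeat numbers are shared by all groups. Deviations of same-numbered libraries correlated at 0.081 to 0.343 within a vector (6 pairs) and -0.166 to -0.006 between vectors (9 pairs), over 12290 genes. The main fit did not take the numbers as pairs, although the values within a vector, where the states were compared, were all positive. Replicate blocks were therefore run as alternatives, and PCDHGA7 was the call lost under them. Alternatives were other scalings, DESeq2 1.42.0, no filter, only the libraries compared, replicate blocks, a size limit, removal of GC and length trends, and leaving out each library. Promoters came from RefSeq.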

Additional observations from a re-analysis of the deposited data

How the results depend on the processing

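Low counts limit every member, and the results rest on few libraries. For ΔIDR1b against no ARID1A with EWS-FLI1 the count of called members, 2, was 1 with no filter, with only the libraries compared, with a replicate block over all libraries or within each vector, with GC and length trends removed or with a log2 change of at least 1. It was 0 with DESeq2 or with the trends removed together with the block. PCDHGA7 was the call lost under either replicate block (edgeR adjusted p = 0.055 and 0.0679), which changed no other call. For ΔIDR1b against WT with EWS-FLI1 DESeq2 called 1 in place of 2, since it gave PCDHB13 no adjusted p. With the trends removed, ΔIDR1b against WT with the empty vector gave 2, adding PCDHB14, and WT against no ARID1A with the empty vector gave 1, PCDHGA7. PCDHGA7 was then also called with ΔIDR1b against WT under EWS-FLI1, where the main edgeR test gave an adjusted p of 0.0539 (log2 3.99, SE 1.47). The trends came from the 16157 genes with a GC value, 79.3% of those kept, under the share needed for all genes, although all 13 members had one.

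Leaving out single libraries gave 0 to 1 calls for ΔIDR1b against no ARID1A with the empty vector and 0 to 2 with EWS-FLI1, where it was 0 without the first EWS-FLI1 library of no ARID1A or of ΔIDR1b. Against WT it gave 0 to 1 and 1 to 2. All other comparisons stayed at 0. The ΔIDR1b over WT ratio of the summed levels was 1.79 for beta with the pseudogenes added (empty vector). For gamma with EWS-FLI1 it was 1.64 with upper-quartile factors, 1.77 without PCDHGA11 and 1.37 without PCDHGC3. Left-out libraries gave 0.862 to 1.55 and 0.842 to 1.33 for alpha, 1.23 to 1.62 and 1.41 to 1.69 for beta, and 1.14 to 1.53 and 1.58 to 1.61 for gamma, by vector. Log2 differences that were not called changed sign, ranging with single libraries left out from -2.48 to 2.34 for PCDHGA7 (WT against no ARID1A, EWS-FLI1) and from -1.93 to 0.28 for PCDHB13 (ΔIDR1b against WT, empty vector). With annotated length, 8 of the 10 highest members stayed among the 10 highest.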

Other observations

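Pseudogenes inside the arrays were not among the members. PCDHB18P, a beta pseudogene, had 5, 9, 7 and 1 counts in the 4 ΔIDR1b libraries, 3 counts in 1 library without ARID1A, 2 in 1 WT library and 0 in the 6 others. PCDHB19P had 6, 4, 2 and 0 counts in the ΔIDR1b libraries, 1 count in 1 library without ARID1A and 0 in the 7 others. PCDHGB8P had 17 counts over all libraries, PCDHGB9P 4, all of them with ΔIDR1b, and PCDHB17P 0. These genes were looked at after their values were seen, and no test was run on them.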
